A study of Homo sapiens with 9 samples.

Results

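Chromosomes 4, 13 and 18 are the human autosomes with the fewest genes for their length, and they are described here through every CUT&Tag peak that 3 deposited lists place on them. CUT&Tag brings a transposase to an antibody's target in permeabilised cells, so that the sequenced fragments come from bound sites. The cells were A549, a lung adenocarcinoma line. In the first group the line's own BAZ2B gene carried an HA epitope tag, inserted at the 5' side, and the antibody was against HA. In the second group the cells were untagged wild type (WT) with the same anti-HA antibody, and so show what the antibody yields without its epitope. The third group was the tagged line with an antibody against H3K4me3, trimethylated lysine 4 of histone H3. Each group had 3 replicates and 1 peak list. The sources used here do not say whether the tagged line was 1 clone or a pool. The labels also describe an siRNA transfection that no library label mentions. The antibody label of 2 H3K4me3 replicates ends in another number, and their titles were followed.

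The 3 chromosomes held 371 of the 7027 HA-BAZ2B peaks, 111 of the 2451 WT peaks and 1225 of the 17630 H3K4me3 peaks, which is 1707 of 27108 in all. Chromosome 4 held 185 HA-BAZ2B, 54 WT and 655 H3K4me3 peaks. Chromosome 13 held 104, 35 and 321 of the same lists in that order, and chromosome 18 held 82, 22 and 249. Positions are on the build hg19. The values of a list come from 1 library (replicate 3 for HA-BAZ2B, 2 for WT and 1 for H3K4me3), in which a peak was kept when at least 2 replicates had it. There is no value per replicate and the depth of the libraries is unknown. The tests below therefore take peaks as their units and describe these lists, not cultures, and the intervals cover counting error over peaks only.

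BAZ2B is a bromodomain protein and an accessory subunit of ISWI chromatin remodelers, enzymes that slide nucleosomes along DNA. The title of the series connects it with G-quadruplexes, 4-stranded structures that G-rich DNA can form and that are common at promoters. H3K4me3 marks the nucleosomes around active promoters. Gene-poor chromosomes carry few promoters, long stretches of late-replicating chromatin between them, and, in the case of chromosome 18, a known position near the edge of the nucleus.

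The letters of the peaks themselves are not printed, since no hg19 genome was used here. Promoters of 3 chromatin regulators, 1 on each chromosome, show instead what a G-quadruplex motif looks like there. They are RefSeq sequences of GRCh38.p14, from 250 bases before to 50 after a transcription start. SMARCA5 encodes an ATPase of ISWI complexes (chr4:143513452-143513751, plus strand). ING1 encodes a protein whose PHD finger reads H3K4me3 (chr13:110712373-110712672, plus strand, 1 of 4 listed starts). MBD1 encodes a protein that binds methylated CpG (chr18:50281718-50282017, minus strand). Each is written 5' to 3' along its gene, with the motif in capitals. The motif is 4 runs of at least 3 G with 1 to 7 bases between runs, on either strand. Capitals starting with C thus hold it on the opposite strand. A further match that shares bases with a marked one is left in small letters, as just after the capitals of ING1.
SMARCA5: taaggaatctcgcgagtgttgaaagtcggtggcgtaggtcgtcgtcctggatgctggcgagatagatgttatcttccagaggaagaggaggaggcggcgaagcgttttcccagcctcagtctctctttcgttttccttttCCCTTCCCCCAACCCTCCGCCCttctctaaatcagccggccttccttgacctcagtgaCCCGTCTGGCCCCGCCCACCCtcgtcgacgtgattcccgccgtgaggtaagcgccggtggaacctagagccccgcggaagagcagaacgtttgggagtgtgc
ING1: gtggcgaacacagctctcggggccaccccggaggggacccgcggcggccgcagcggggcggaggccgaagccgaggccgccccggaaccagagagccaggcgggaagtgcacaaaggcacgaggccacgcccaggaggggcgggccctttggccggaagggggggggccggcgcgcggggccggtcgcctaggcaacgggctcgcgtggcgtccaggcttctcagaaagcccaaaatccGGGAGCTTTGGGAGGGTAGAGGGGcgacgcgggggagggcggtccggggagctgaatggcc
MBD1: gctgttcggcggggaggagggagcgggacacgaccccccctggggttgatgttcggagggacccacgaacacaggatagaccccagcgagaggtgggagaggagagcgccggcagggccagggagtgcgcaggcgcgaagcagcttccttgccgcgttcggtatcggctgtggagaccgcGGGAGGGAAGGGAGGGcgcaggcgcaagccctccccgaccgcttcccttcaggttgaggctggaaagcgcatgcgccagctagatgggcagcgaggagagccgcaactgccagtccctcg

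Such a motif was found in 27.5% (95% interval 25.4 to 29.6%) of the 1766 listed promoters of chromosomes 4, 13 and 18, against 30.7% (30.02 to 31.3%) of the 19390 promoters of the other autosomes in that table. It was in 30.4% of all 21156. Chromosome 4 had 26.8%, chromosome 13 had 28.1% and chromosome 18 had 28.5%, which ranked the third, sixth and eighth lowest of 21 autosomes (chromosome 8 is not used in this count). The median GC content of these promoters was 61.7% on the 3 chromosomes and 62.7% on the others. Promoters of known genes of the 3 chromosomes, taken from 8 lists, had the motif in 5 of 11 for chemokine, NF-kappaB and cell death genes, in 15 of 35 for growth factor and TGF-beta signalling (among them KIT and SMAD2) and in 8 of 20 for chromatin regulators. It was in 5 of 26 promoters of tissue-restricted genes, which include GABRA2, a neuronal receptor subunit. In the other 4 lists it was in 9 of 28 promoters of developmental transcription factors, 9 of 29 of housekeeping genes, 4 of 20 of DNA replication and repair genes and 2 of 16 of cell cycle genes, beside 27.5% of all promoters of the 3 chromosomes. Several of these promoters belong to 1 gene and overlap, so these counts are not independent and were not tested. A match is a description of these letters, and no promoter could be tied to a peak because the builds differ.

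The 3 chromosomes were poor in every kind of listed peak. After the recurrence filter of the lists, they were poorer in anti-HA peaks than in H3K4me3 peaks. They make up 13.3% of the length of the 22 autosomes. Their part of the autosomal peaks was 5.63% for HA-BAZ2B, 4.77% for WT and 7.47% for H3K4me3. H3K4me3 peaks numbered 3.19 per Mb on them, against 6.07 per Mb on the 19 other autosomes. By chromosome the density was 3.43 per Mb on 4, 2.79 on 13 and 3.19 on 18, the 3 lowest of the 22, with chromosome 21 next at 3.47. RefSeq's count of protein-coding genes gives the same 3 chromosomes as the lowest, at 4.03, 2.93 and 3.46 genes per Mb (genes of GRCh38.p14 over hg19 lengths). HA-BAZ2B peaks numbered 0.965 per Mb on the 3 chromosomes and 2.49 per Mb on the others. WT peaks numbered 0.289 and 0.888 per Mb, in the same order of chromosomes.

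The H3K4me3 peaks of chromosomes 4, 13 and 18 looked like those elsewhere in height and width but were less significant. The fold enrichment, the peak caller's ratio over its own background estimate, had a median of 9.09 on them, against 9.05 on the 19 other autosomes. The median width was 1119 bp on the 3 chromosomes and 1136 bp on the others. The −log10 q value, which grows with both the height and the number of reads in a peak, had a median of 37.1 on the 3 chromosomes and 42.7 on the others. Its highest value was 88.0 on the 3 chromosomes and, over many more peaks, 229 on the others. The value of 229 was on chromosome 2. The next highest autosome, chromosome 12, reached 132, and chromosome 6 reached only 86.5. Autosomal H3K4me3 peaks were cut into 5 equal groups of −log10 q, and only 7.10% of their peaks fell in group 5, the highest (61.4 and above), against 21.04% of the others' peaks. Chromosomes 6, 21, 13, 22, 4 and 18 had the 6 lowest medians of −log10 q, so 3 other autosomes were among them.

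In the filtered lists, an H3K4me3 peak on chromosome 4, 13 or 18 carried an anti-HA peak less often than an H3K4me3 peak elsewhere. This held in tagged and in untagged cells alike. An HA-BAZ2B peak overlapped 369 of the 1225 H3K4me3 peaks (30.1%, 27.6 to 32.8%), against 6160 of 15165 on the other autosomes (40.6%, 39.8 to 41.4%). A WT peak overlapped 98 (8.0%, 6.54 to 9.66%), against 2079 on the others (13.7%, 13.2 to 14.3%). An overlap needed at least 1 bp. Since stronger and wider H3K4me3 peaks carry anti-HA peaks more often, the comparison was made within 25 strata, these 5 groups of −log10 q crossed with 5 of width. The strata alone would give the 3 chromosomes an HA-BAZ2B share of 34.4% (421 peaks) and a WT share of 10.8% (133 peaks). The odds of an HA-BAZ2B peak within strata were 0.781 times those on the other autosomes (0.676 to 0.902, Cochran-Mantel-Haenszel chi-square test, adjusted p = 0.00345 over 4 pooled tests, n = 1225 peaks). For WT the odds ratio was 0.704 (0.566 to 0.876, adjusted p = 0.00345, n = 1225 peaks). Within strata, the odds ratios of the 19 other autosomes, each against the rest, ran from 0.721 to 1.40 for HA-BAZ2B. For WT they ran from 0.664 to 1.55. Both pooled values lie inside these ranges, and the pooled test does not measure this spread between chromosomes. Without strata the pooled odds ratios were 0.630 for HA-BAZ2B and 0.547 for WT. Among the 17 strata with at least 20 peaks of the 3 chromosomes, the HA-BAZ2B share was lower on them in 12 and higher in 5, and the WT share was lower in 14 and higher in 3.

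**Figure D1:**
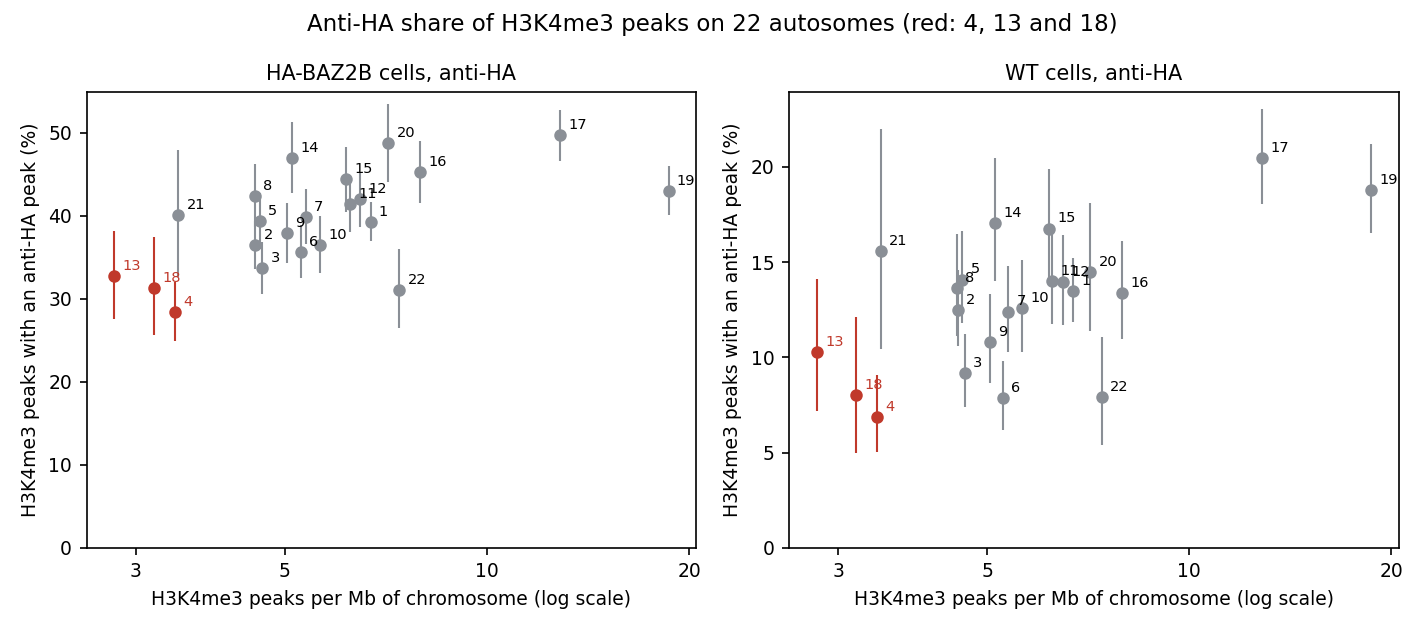
Percentage of H3K4me3 peaks that carried an HA-BAZ2B (left) or a WT anti-HA peak (right) on each autosome against H3K4me3 peaks per Mb (log scale), with exact 95% binomial intervals. Chromosomes 4, 13 and 18, in red, lie at the left with HA-BAZ2B shares of 28.4%, 32.7% and 31.3%. Chromosome 21, close to them in density, had 40.1%, and chromosome 22, at 7.41 peaks per Mb, had 31.1%.

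Chromosome 4 carried most of the pooled difference. Its HA-BAZ2B share was 28.4% (24.97 to 32.02%) and its WT share 6.87% (5.05 to 9.09%), both the lowest of the 22 autosomes. Against the other 21 autosomes its odds ratio within strata was 0.701 for HA-BAZ2B (0.577 to 0.853, Cochran-Mantel-Haenszel chi-square test, adjusted p = 0.00439 over 44 tests, n = 655 peaks) and 0.589 for WT (0.429 to 0.809, adjusted p = 0.00699). Chromosome 18 had an HA-BAZ2B share of 31.3% and a WT share of 8.03%, with odds ratios of 0.811 (0.593 to 1.11, adjusted p = 0.339, n = 249 peaks) for HA-BAZ2B and 0.691 (0.429 to 1.11, adjusted p = 0.230) for WT. Chromosome 13 had an HA-BAZ2B share of 32.7% and a WT share of 10.3%, with odds ratios of 0.978 (0.748 to 1.28, adjusted p = 0.962, n = 321 peaks) for HA-BAZ2B and 1.003 (0.692 to 1.45, adjusted p = 0.986) for WT. The background for these calls is wide, since 5 of 22 autosomes (22.7%) passed for HA-BAZ2B and 4 of 22 (18.2%) for WT. In the lower direction 2 autosomes passed in each list (9.09%), chromosomes 3 and 4. In the higher direction 3 passed for HA-BAZ2B (13.6%), namely 6, 17 and 20, and 2 for WT (9.09%), namely 17 and 19.

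Without chromosome 4 the pooled odds ratio from the same chi-square test was 0.885 for HA-BAZ2B (adjusted p = 0.353) and 0.839 for WT (adjusted p = 0.353), and neither passed. A direct test of chromosome 4 against 13 and 18 within strata, chosen after these values were seen, gave an odds ratio of 0.770 for HA-BAZ2B (0.574 to 1.03, Cochran-Mantel-Haenszel chi-square test, p = 0.0819) and 0.671 for WT (0.433 to 1.04, p = 0.0718), so the 3 were not shown to differ from each other. Single autosomes departed from the order of density. Chromosome 21, next to them in density, had the highest odds ratios of the 22, 1.40 for HA-BAZ2B and 1.55 for WT, neither past the threshold. Chromosome 22 had 7.41 H3K4me3 peaks per Mb and the second lowest HA-BAZ2B share, 31.1%. Over the 22 autosomes Spearman's rho between H3K4me3 density and the HA-BAZ2B share was 0.557, and with the WT share 0.438, and over the 19 without these chromosomes it was 0.381 for HA-BAZ2B and 0.240 for WT. These points share the 3 libraries and are a description.

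**Figure D2:**
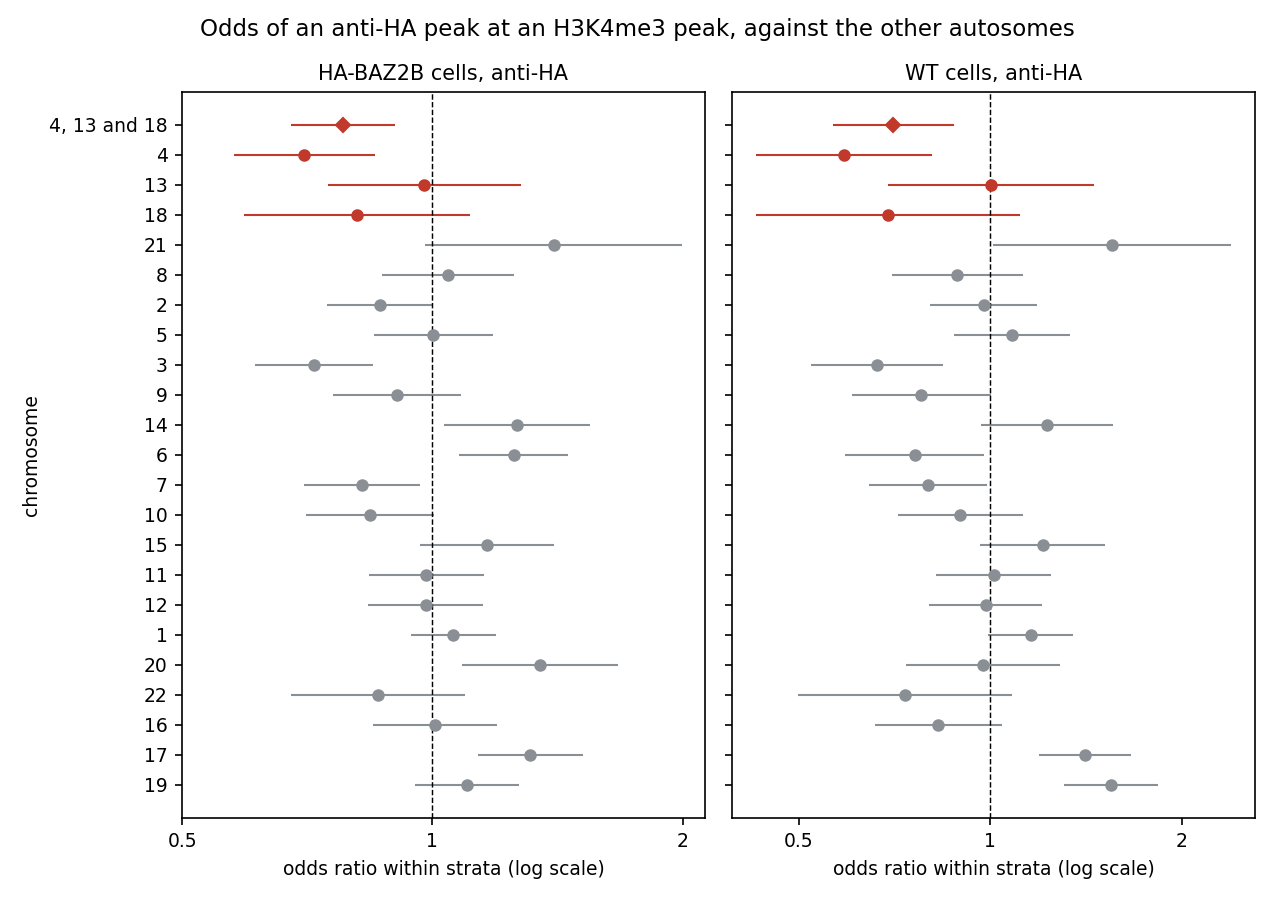
Odds ratio within strata (log scale, 95% interval) of an HA-BAZ2B peak (left) or a WT anti-HA peak (right) at an H3K4me3 peak. The diamond sets chromosomes 4, 13 and 18 together against the 19 other autosomes (0.781 and 0.704), and each point below sets 1 autosome against the other 21. The red points are 4, 13 and 18, and the grey ones run down from low to high H3K4me3 density.

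With strength measured as −log10 q, the HA-BAZ2B difference was widest at the weak H3K4me3 peaks of the 3 chromosomes. At those of middle strength the share was lower by less, with intervals that overlapped. At the strong ones no difference was detectable. In group 1 of −log10 q (up to 17.9), 11 of 282 peaks (3.90%, 1.963 to 6.87%) carried an HA-BAZ2B peak, against 12.2% (11.1 to 13.5%) of 2996 on the other autosomes. In group 2 it was 13.9% (10.1 to 18.4%) on the 3 chromosomes and 22.1% (20.6 to 23.6%) on the others. In group 3 it was 34.5% (29.2 to 40.1%) and 40.2% (38.4 to 41.9%), in the same order. The order then turned, with intervals that overlap. In group 4 the share was 56.3% (50.1 to 62.4%) on the 3 chromosomes, against 54.4% (52.6 to 56.2%). In group 5 it was 74.7% (64.3 to 83.4%) of 87 peaks, against 72.05% (70.5 to 73.6%).

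WT peaks were also lower at weak H3K4me3 peaks, and here the intervals of the middle group were apart as well. They lay on 3.19%, 3.47%, 5.54%, 16.5% and 21.8% of the H3K4me3 peaks of the 3 chromosomes, in groups 1 to 5. On the other autosomes the shares were 8.38%, 7.02%, 9.83%, 15.3% and 27.04%. In group 3 the WT intervals did not overlap (3.26 to 8.72% on the 3 chromosomes, against 8.78 to 10.96%), and in group 5 the WT share was lower on the 3 chromosomes, with overlapping intervals. In group 1 of the 3 chromosomes, 11 of 282 H3K4me3 peaks carried HA-BAZ2B (3.90%, 1.963 to 6.87%) and 9 of 282 carried WT (3.19%, 1.47 to 5.97%). The intervals are wide and overlap. These lists come from different libraries of unknown depth, so the rates do not compare signal. The 11 that carried HA-BAZ2B were 5 on chromosome 4, 3 on 13 and 3 on 18, and 2 of the 11 also had a WT peak.

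**Figure D3:**
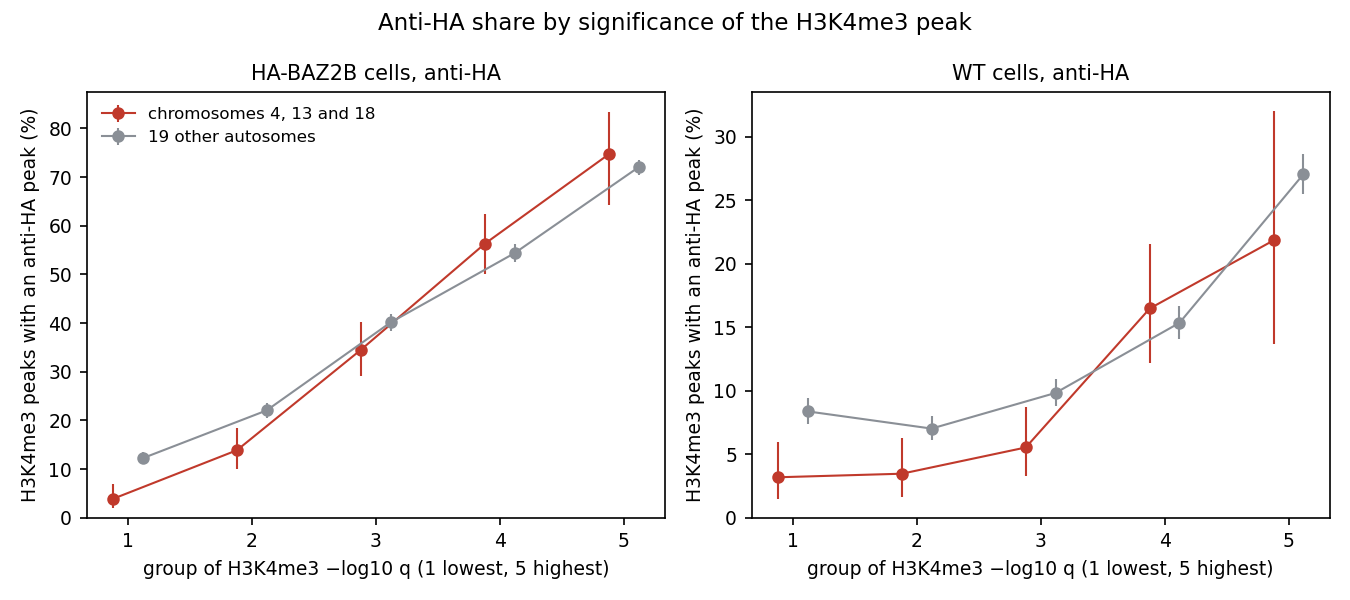
Percentage of H3K4me3 peaks that carried an HA-BAZ2B (left) or a WT anti-HA peak (right) in 5 equal groups of H3K4me3 −log10 q, with exact 95% binomial intervals, for chromosomes 4, 13 and 18 (red) and the 19 other autosomes (grey). The HA-BAZ2B lines start apart, at 3.90% and 12.2%, and meet in the upper groups, at 74.7% and 72.05% in group 5.

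In groups 1 and 2 together, the odds ratio of the 3 chromosomes within strata was 0.450 for HA-BAZ2B (0.333 to 0.608) and 0.414 for WT (0.260 to 0.661). In groups 4 and 5 it was 1.21 for HA-BAZ2B (0.955 to 1.52) and 1.07 for WT (0.798 to 1.43). The test of this difference was chosen after the shares had been seen. In a logistic regression with the stratum terms and errors clustered by 5 Mb window, the odds ratio in groups 1 and 2 was 0.376 times that in groups 4 and 5 for HA-BAZ2B (0.244 to 0.580, adjusted p = 1.96e-05 over 2 tests, n = 1225 peaks). For WT it was 0.387 times (0.225 to 0.665, adjusted p = 5.86e-04, n = 1225 peaks). In group 3 the same model gave an odds ratio of 0.769 for HA-BAZ2B (0.573 to 1.03) and 0.530 for WT (0.331 to 0.849), whose interval lay under 1. All 3 chromosomes had HA-BAZ2B odds ratios below 1 in groups 1 and 2, and the intervals lay under 1. They were 0.434 on chromosome 4 (0.288 to 0.654), 0.538 on 13 (0.311 to 0.932) and 0.386 on 18 (0.193 to 0.772). Chromosome 13, with an odds ratio of 0.978 over all its peaks, was thus also low in its weak peaks. For WT the interval lay under 1 on chromosome 4 (0.242, 0.107 to 0.545) and included 1 on 13 (0.583) and 18 (0.665). Without chromosome 4 the WT difference between weak and strong peaks was 0.562 times (0.291 to 1.09, adjusted p = 0.0865, n = 570 peaks) and did not pass, whereas that of HA-BAZ2B was 0.379 times (adjusted p = 0.00470).

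Among all autosomes, the HA-BAZ2B share in groups 1 and 2 was lowest on 18 (9 of 115, 7.83%), then 4 (27 of 304, 8.88%), 3 (33 of 355, 9.30%) and 13 (15 of 151, 9.93%). It was highest on 17 (24.7%) and 6 (27.2%). The intervals of 18, 4, 3 and 13 overlap, so their order among themselves is not resolved. In groups 4 and 5 the same chromosomes lay among the others. The share was 66.7% on 18, 60.7% on 4, 61.9% on 3 and 56.7% on 13, in a range over the autosomes of 46.9% to 73.6%. The WT share in groups 1 and 2 was lowest on 4 (6 of 304, 1.97%), with 3 next (2.54%), and 13 (4.64%) and 18 (5.22%) were the fifth and the sixth lowest.

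**Figure D4:**
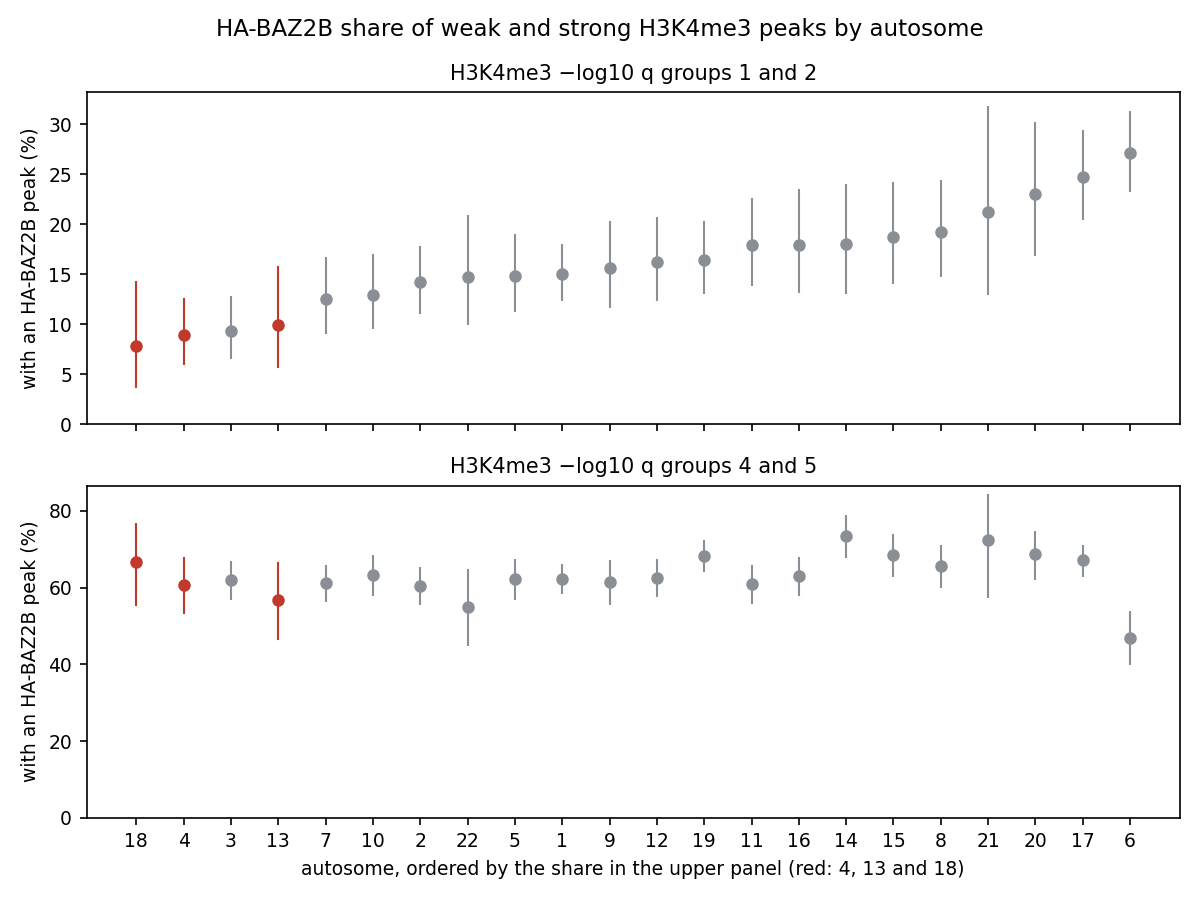
HA-BAZ2B share of H3K4me3 peaks in the lower 2 (top) and upper 2 (bottom) of 5 groups of −log10 q on each autosome, with exact 95% binomial intervals. Autosomes run from the lowest to the highest share of the upper panel, where 18, 4 and 13 (red) and 3 lie between 7.83% and 9.93%. In the lower panel the red points, 56.7% to 66.7%, are spread among the others.

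The split between weak and strong peaks depended on measuring strength by −log10 q. With 5 equal groups of fold enrichment in its place, the ratio of odds ratios was 0.851 for HA-BAZ2B (0.607 to 1.19, adjusted p = 0.348, n = 1225 peaks) and 0.751 for WT (0.489 to 1.154, adjusted p = 0.348), and the share of the 3 chromosomes was lower in every group. In the lowest fold group it was 19.8% (14.8 to 25.6%), against 32.9% on the other autosomes. In fold group 2 it was 35.8% (29.9 to 41.9%), against 42.1%. In group 3, where the gap was widest, it was 29.8% (24.3 to 35.8%), against 44.7%, and in group 4 it was 30.6% (24.97 to 36.8%), against 43.02%. In the highest fold group it was 33.6% (27.6 to 40.1%), against 40.3%. At equal fold the −log10 q value was also lower on the 3 chromosomes, with medians of 15.1 against 20.1 in the lowest fold group and 46.6 against 55.9 in the highest. Pooled over strata of fold and width, the odds ratio was 0.616 for HA-BAZ2B and 0.557 for WT. The part of this lower −log10 q in the result was not tested.

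The surroundings of the peaks differed as well, and the difference between chromosomes was smaller at matched surroundings. An H3K4me3 peak on the 3 chromosomes had a median of 5 other H3K4me3 peaks within 500 kb, against 10 on the other autosomes. The share with none was 3.84% (47 peaks) on the 3 chromosomes and 1.36% on the others. With 0 to 4 neighbours, 25.9% (22.2 to 29.8%) of the 541 peaks carried an HA-BAZ2B peak, against 34.1% (32.3 to 35.9%) elsewhere. With 5 to 8 neighbours it was 31.9% (27.7 to 36.4%), against 39.5%. With 9 to 16 neighbours it was 36.6% (30.3 to 43.2%), against 42.04%. Only 3 peaks of the 3 chromosomes had more, while 28.3% of the others' peaks did. With the strata crossed by these 4 density groups, the pooled odds ratio was 0.891 for HA-BAZ2B (0.767 to 1.03, chi-square test, adjusted p = 0.275) and 0.788 for WT (0.629 to 0.986, adjusted p = 0.149), and neither passed.

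**Figure D5:**
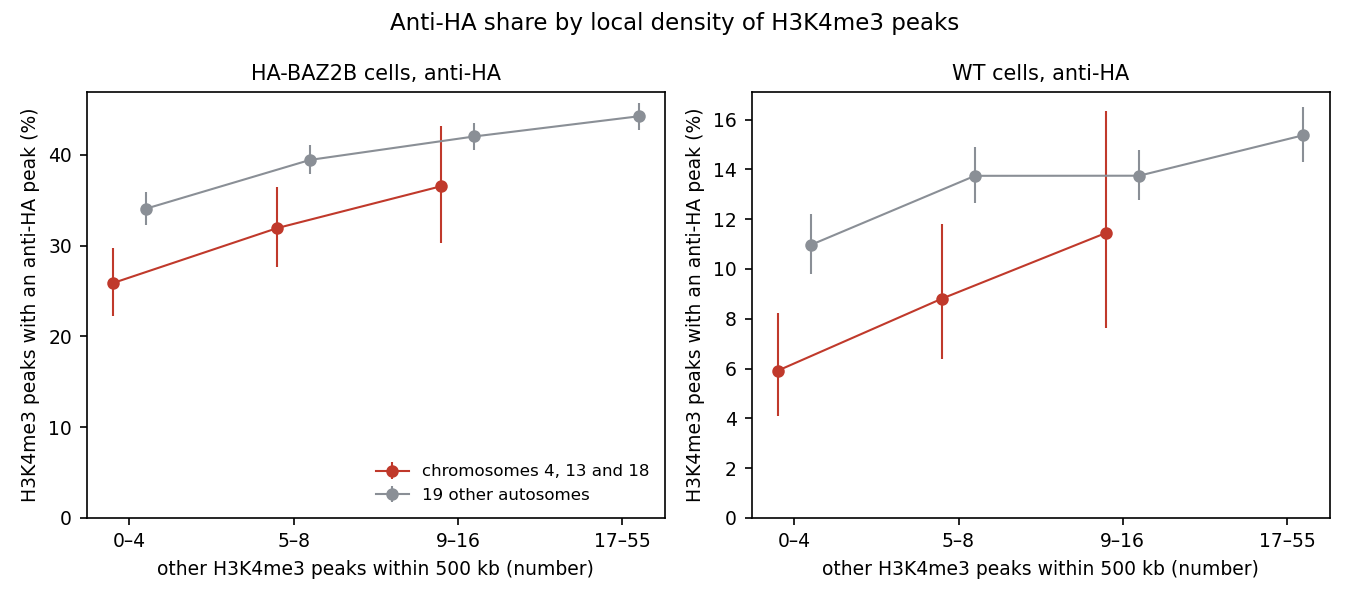
Percentage of H3K4me3 peaks that carried an HA-BAZ2B (left) or a WT anti-HA peak (right) by the number of other H3K4me3 peaks within 500 kb, with exact 95% binomial intervals, for chromosomes 4, 13 and 18 (red) and the 19 other autosomes (grey). The densest group holds 3 peaks of the 3 chromosomes, which are not drawn. HA-BAZ2B shares climb with density in both sets, and the red points stay below the grey ones.

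Along the chromosomes the intervals of the HA-BAZ2B share overlapped between arms. The share was 29.9% on the short and 27.8% on the long arm of chromosome 4, 32.7% on the long arm of 13, and 38.03% on the short arm of 18 (27 of 71 peaks, 26.8 to 50.3%) against 28.7% on its long arm (22.1 to 35.9%). The WT share was also highest on 18p, at 12.7% (5.96 to 22.7%), against 6.18% on 18q. Giemsa-light bands, which are the gene-richer ones, held 60.9% of the H3K4me3 peaks of the 3 chromosomes and 60.8% of the others' peaks. On chromosome 4 the HA-BAZ2B share was 31.0% (26.4 to 35.9%) in light bands and 24.8% (19.8 to 30.4%) in the other bands. On chromosome 13 it was 32.0% and 33.9%, and on 18 it was 30.9% and 32.1%, in the same order. Within 1 Mb of an end, 19 of 49 H3K4me3 peaks (38.8%, 25.2 to 53.8%) carried HA-BAZ2B, against 29.8% farther in. Of the 103 bands, 95 held an H3K4me3 peak and 82 an H3K4me3 peak with HA-BAZ2B.

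The anti-HA peaks of the 3 chromosomes largely resembled those elsewhere in place and shape but were less significant. All 371 HA-BAZ2B peaks lay on an H3K4me3 peak (lower bound 99.01%), against 98.9% on the other autosomes. Of the 111 WT peaks, 99 did (89.2%, 81.9 to 94.3%), against 93.96% (92.9 to 94.9%). At sites matched between the lists, the median ratio of HA-BAZ2B to H3K4me3 width was 0.932, against 0.918 elsewhere. For WT to H3K4me3 width it was 0.452, against 0.504. The HA-BAZ2B summit lay a median of 96 bp from the H3K4me3 summit on the 3 chromosomes and 83 bp on the others. The median fold enrichment of HA-BAZ2B peaks was 7.93 on the 3 chromosomes and 8.17 on the others. Their median −log10 q was 25.3 on the 3 chromosomes and 28.9 on the others. For WT peaks it was 8.54 and 10.5, and their median width was 586 and 642 bp, in the same order.

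Tagged and untagged lists overlapped less on the 3 chromosomes, a difference described by its intervals and not tested. A WT peak overlapped 80 of the 371 HA-BAZ2B peaks (21.6%, 17.5 to 26.1%), against 29.4% (28.3 to 30.5%) on the other autosomes. An HA-BAZ2B peak overlapped 80 of the 111 WT peaks (72.1%, 62.8 to 80.2%), against 81.96% (80.3 to 83.5%). The recurrence filter also left fewer anti-HA peaks. By the running peak numbers, at most 33.1% of the peaks that the HA-BAZ2B source library had on the 3 chromosomes were kept, against 44.5% on the others. For WT it was at most 18.9%, against 26.5%, and for H3K4me3 82.5%, against 80.3%. Before the filter, the HA-BAZ2B source library had at least 1122 peaks on the 3 chromosomes and 13965 on the others. The WT library had at least 588 and 8356, and the H3K4me3 library at least 1484 and 18887. By these counts, the part of the HA-BAZ2B peaks on the 3 chromosomes was close to that of H3K4me3 before the filter. The part of the WT peaks was somewhat lower. The lower part of the HA-BAZ2B peaks on the 3 chromosomes, beside H3K4me3, is thus described for the filtered lists only. The part of the filter in the lower shares was not tested.

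The question that the tag can answer is whether the 3 chromosomes differ in HA-BAZ2B beyond the antibody's background. Of the H3K4me3 peaks without a WT peak, 290 of 1127 (25.7%) carried HA-BAZ2B on the 3 chromosomes, against 4356 of 13086 (33.3%). Within strata the odds ratio was 0.851 (0.729 to 0.993, Cochran-Mantel-Haenszel chi-square test, p = 0.0453, adjusted p = 0.0604) and did not pass. Among H3K4me3 peaks with only 1 of the 2 anti-HA lists, HA-BAZ2B was the one present at 290 of 309 (93.9%) on the 3 chromosomes, against 4356 of 4631 (94.1%). The odds ratio was 0.748 (0.438 to 1.28, adjusted p = 0.290, n = 309 peaks). No difference between the lines was thus detectable, and the interval also holds odds ratios well away from 1.

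The strongest HA-BAZ2B peak of chromosome 13 was the highest of the 371, at 13q14.2 (chr13:47370693-47371317, hg19 as all that follow). Its fold enrichment was 16.8, on an H3K4me3 peak of 16.8, and a WT peak of 10.4 lay there too. Next on that chromosome came 2 sites at 13q14.3 without a WT peak, chr13:51654507-51655025 with 13.9 and chr13:52377766-52378544 with 12.6. On chromosome 4 the highest 2 were neighbours at 4q35.2, 195 and 183 kb from the end of the long arm. The sites were chr4:190959053-190959618 with a fold enrichment of 15.5 and no WT peak, and chr4:190970282-190971021 with 15.2 and a WT peak of 8.51. This band holds the D4Z4 repeat array, of which a close copy lies at 10q26, and the sources used here do not say how reads with several placements were treated. The third, chr4:89300080-89300744 at 4q22.1, had 14.1 and no WT peak. On chromosome 18 the highest were chr18:48494406-48495143 at 18q21.2 (14.9), chr18:55288356-55289467 at 18q21.31 (12.6) and chr18:19192171-19193191 at 18q11.2 (12.5), none with a WT peak.

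The widest HA-BAZ2B peaks were low. They were chr4:103746612-103749706 at 4q24, with 3095 bp and a fold enrichment of 3.95, and chr4:102267024-102269792 in the same band, with 2769 bp and 4.50. On chromosome 13 they were chr13:50654412-50657161 at 13q14.2 (2750 bp) and chr13:20531696-20534223 at 13q12.11 (2528 bp), and on 18 chr18:48721922-48724153 at 18q21.2 (2232 bp) and chr18:9136214-9138253 at 18p11.22 (2040 bp). Each lay on an H3K4me3 peak of 1807 to 2838 bp.

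Of the H3K4me3 peaks in group 5 of −log10 q, 74.7% carried HA-BAZ2B on the 3 chromosomes, against 72.05% on the other autosomes. Peaks without it were thus not particular to the 3 chromosomes, and there they included some of the most significant. The most significant H3K4me3 peak of all 3 chromosomes was among them, at 13q34 (chr13:115000255-115001070), with a −log10 q of 88.0 and a fold enrichment of 17.7, 169 kb from the chromosome end. The top H3K4me3 peak of chromosome 18, at 18q23 (chr18:76828987-76829996), with 80.5 and 15.04, also lacked one. The others were chr13:25860868-25861926 at 13q12.13 (69.8), chr18:32923458-32924716 at 18q12.2 (73.5), chr4:41992058-41993128 at 4p13 (72.7) and chr4:119199400-119200677 at 4q26 (71.4).

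The highest WT peaks lay in other places than the highest HA-BAZ2B peaks, several of them at the tips of chromosomes. The highest was chr13:110076336-110076802 at 13q33.3, at 19.1, where neither H3K4me3 nor HA-BAZ2B had a peak and the nearest H3K4me3 peak was 155 kb away. At the tip of 18p, chr18:9897-10551 had 15.7, with an HA-BAZ2B peak of 4.81. At the tip of 4p, chr4:9878-10415 had 13.2 and no HA-BAZ2B peak. Near the end of 4q, chr4:191043338-191044395 had 13.2, with an HA-BAZ2B peak of 4.97. All 3 of these end sites lay on H3K4me3 peaks. For them too, the treatment of reads with several placements is unknown. The remaining ones named by the same rule were chr13:53226478-53227125 at 13q14.3 (12.04) and chr18:12947919-12948399 at 18p11.21 (9.45), both with HA-BAZ2B. Of the 12 WT peaks outside H3K4me3, the next highest were chr4:49318261-49319165 at 4p11, beside the centromere (8.19), and chr4:34183041-34183794 at 4p15.1, 839 kb from any H3K4me3 peak (7.33).

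The densest 1 Mb windows held 14 to 17 H3K4me3 peaks. The window of chromosome 4 from 2000001 to 3000000 at 4p16.3 held 17 H3K4me3 peaks, 8 of them with HA-BAZ2B and 1 with WT. On chromosome 13 the window from 50000001 to 51000000 at 13q14.2 held 14, 8 with HA-BAZ2B and 4 with WT. On chromosome 18 the window from 12000001 to 13000000 at 18p11.21 held 14, 6 with HA-BAZ2B and 4 with WT. The longest stretch without an H3K4me3 peak, apart from centromeres, was 7.41 Mb on chromosome 13, from 80915722 to 88323245 (13q31.1 to 13q31.2). It measured 4.04 Mb on chromosome 4 (4q12 to 4q13.1) and 3.03 Mb on 18 (18q21.2). No WT peak lay in these 3 stretches, and 1 HA-BAZ2B peak reached into that of chromosome 18.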

How the data were processed

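The 9 libraries were CUT&Tag of A549 cells in 3 groups. The submitters' processing notes name Bowtie2 2.4.5, MACS2 2.1.4, SAMtools 1.15.1, Picard and bedtools, and the builds hg19 and dm6. The sources used here give neither caller settings nor a control. By the labels' rule the lists keep peaks found in at least 2 replicates, with the rows of the largest replicate's file.

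Per the file format as deposited, the lists give the authors' fold enrichment (a ratio over the caller's background), −log10 q, a whole-number display score that was not used, and positions. The 3 columns of −log10 p, 1 per list, were not used. The lowest deposited −log10 q was 1.36. These values are not scaled between lists and depth is unknown.

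Rows of chromosomes 4, 13 and 18 were taken whole, and 5 peaks on unplaced or alternative contigs named for them were left out. Shares have exact (Clopper-Pearson) 95% intervals. Odds ratios are Mantel-Haenszel estimates with the two-sided Cochran-Mantel-Haenszel test, Benjamini-Hochberg adjusted, threshold 0.05, and were checked on simulated outcomes. The 3 chromosomes, the gene lists and the tests were chosen with earlier results of these data known. Regions were named by rank: per chromosome the 3 highest and 2 widest HA-BAZ2B peaks, the 2 most significant H3K4me3 peaks without HA-BAZ2B, the 2 highest WT peaks, the densest 1 Mb window and the longest stretch without H3K4me3, plus the 3 highest WT peaks outside H3K4me3. Gene naming by start site was not applied, because the annotation used here is of GRCh38.p14 and the peaks are on hg19. Lengths and bands of hg19 came from circlize 0.4.16. Python 3.11.15, pandas 2.3.3, scipy 1.17.1 and statsmodels 0.14.6 were used.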

Additional observations from a re-analysis of the deposited data

How the results depend on the processing

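The pooled odds ratio of chromosomes 4, 13 and 18 stayed below 1 in all 17 alternatives, between 0.616 and 0.891 for HA-BAZ2B and between 0.547 and 0.839 for WT, and passed in 15 of them for each list. It did not pass with strata crossed by local H3K4me3 density (HA-BAZ2B 0.891, WT 0.788) or without chromosome 4 (HA-BAZ2B 0.885, WT 0.839). The share without a WT peak, which had not passed, passed without strata (0.694), with strata of width alone (0.682), with strata of fold enrichment and width (0.683) and without chromosome 13 (0.813). The HA-BAZ2B against WT difference passed in none of 17, between 0.663 and 0.964. The number of autosomes called for HA-BAZ2B, 5 as reported, was 12 without strata, 10 with width alone, 10 with fold and width, 2 with local density and 3 when the overlap had to cover at least 50% of the anti-HA peak. For WT, 4 as reported, it was 9, 9 and 8 under the first 3 of these. The difference between weak and strong H3K4me3 peaks passed in 9 of 10 alternatives for HA-BAZ2B and 8 of 10 for WT, all chosen after seeing the data. It did not pass with fold enrichment in place of −log10 q (0.851 and 0.751) and, for WT, without chromosome 4 (0.562). The cause of these changes was not tested.

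No paired analysis was possible because each group has 1 list and no value per replicate. Neighbouring peaks are not independent: with errors clustered by 5 Mb window the pooled odds ratios were 0.791 for HA-BAZ2B (adjusted p = 0.0100, n = 1225 peaks) and 0.708 for WT (adjusted p = 0.0106). Depth is unknown, so a missing peak is one that was not listed, which does not show absence of binding. The small numbers of WT peaks on chromosomes 13 (35) and 18 (22) limit what could be detected there.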
